A study of Mus musculus with 4 samples.

Results

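HOX genes encode homeodomain transcription factors and lie in 4 clusters, Hoxa on chromosome 6, Hoxb on chromosome 11, Hoxc on chromosome 15 and Hoxd on chromosome 2 of the mouse. The 38 HOX genes described here were taken by name and were matched to array probes through the RefSeq accession of each probe. All 38 were matched, by 42 of the 55681 probes on the array, and they are 38 of the 20972 genes that received a symbol in this way. Every probe was examined, and the brightest one stood for its gene. The mutant lines, labelled R/R, were homozygous for knock-in point mutations in both cyclin D-dependent kinases, Cdk4 R24C/R24C and Cdk6 R31C/R31C. The wild-type (WT) lines carried neither mutation. Both kinds of line came from fetal liver cells transduced with p185 BCR-ABL1, the fusion tyrosine kinase of acute lymphoblastic leukaemia, had a mixed C57BL/6J x CD-1 background and were sampled as asynchronous cultures. R/R clones 1, 2 and 3, each a single transformed clone, were labelled with Cy5 and hybridised against a WT pool in Cy3, 1 clone per array, and on the remaining array an R/R pool in Cy3 was set against the WT pool in Cy5. The labels do not say which lines the pools held, and the ids of clones 1 and 2 share their first number. The WT pool was measured 4 times and no WT line was measured alone, so the spread of WT values is technical. The SE and p-values below therefore hold no variation between WT lines. The fit also treats the R/R pool as a sample separate from the clones, which the labels do not settle. All ratios below are R/R over WT on the log2 scale, and the ratio of the pool array was inverted to match.

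The genes of a HOX cluster are numbered by paralog group, and their order along the chromosome follows the body axis: low-numbered (anterior) genes act toward the head and high-numbered (posterior) genes toward the tail. HOX proteins bind DNA together with TALE cofactors of the PBX, MEIS and PKNOX families. MLL complexes maintain HOX transcription, and Polycomb complexes silence it. In blood formation, several Hoxa and Hoxb genes are active in stem and early progenitor cells and are turned down as cells mature, and their forced or persistent expression is a known feature of several leukaemias.

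The start regions of 3 members are shown because 2 of them, Hoxb4 and Hoxb8, are the outer genes of the block of genes whose signal was lower in R/R, while Hoxa7 was measured in both genotypes and is the comparison without such a difference. Each runs 5′ to 3′ from 250 bases before to 50 bases after a transcript start listed by RefSeq on build GRCm38.p6. The Hoxb4 window is chr11:96318017-96318316 on the plus strand, the Hoxb8 window is chr11:96281655-96281954 on the plus strand, and the Hoxa7 window is chr6:52218524-52218823 on the minus strand. Capitals mark matches, on either strand, to CCAAT (the box bound by NF-Y) and to TATAAA (the TATA box; TTTATA is its other strand); CACGTG (an E-box) and TGACAG (a sequence bound by MEIS and PKNOX proteins) were searched too.
Hoxb4: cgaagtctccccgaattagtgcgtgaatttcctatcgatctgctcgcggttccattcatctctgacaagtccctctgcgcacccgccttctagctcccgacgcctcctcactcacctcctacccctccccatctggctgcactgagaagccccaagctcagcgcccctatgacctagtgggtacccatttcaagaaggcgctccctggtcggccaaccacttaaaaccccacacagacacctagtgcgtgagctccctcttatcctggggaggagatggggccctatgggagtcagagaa
Hoxb8: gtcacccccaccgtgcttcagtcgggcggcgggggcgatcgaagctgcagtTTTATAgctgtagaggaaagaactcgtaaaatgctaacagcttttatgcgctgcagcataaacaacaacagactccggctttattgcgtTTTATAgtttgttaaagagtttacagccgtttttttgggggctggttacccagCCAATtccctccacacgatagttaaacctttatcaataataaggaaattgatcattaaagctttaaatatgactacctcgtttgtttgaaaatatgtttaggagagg
Hoxa7: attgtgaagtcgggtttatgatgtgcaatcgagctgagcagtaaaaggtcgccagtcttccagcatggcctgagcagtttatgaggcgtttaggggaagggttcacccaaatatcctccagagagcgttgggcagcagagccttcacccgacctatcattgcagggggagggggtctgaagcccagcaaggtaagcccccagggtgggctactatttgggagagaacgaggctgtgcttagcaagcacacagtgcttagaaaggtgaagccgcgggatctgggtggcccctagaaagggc
The Hoxb8 window held 1 match to CCAAT and 2 to TATAAA, which do not overlap, and the Hoxb4 and Hoxa7 windows held none of the 4 motifs. Among all 32851 start windows of that table, 37.4% held CCAAT, 13.6% TATAAA, 19.2% TGACAG and 7.15% CACGTG. Windows were listed for 22 of the 38 members, of which 15 held CCAAT, 4 TATAAA, 2 TGACAG and 5 CACGTG. The Hoxb4 window had 58% G and C and 14 CpG dinucleotides, the Hoxb8 window 42.3% and 13, and the Hoxa7 window 55.7% and 9, beside a median of 52.7% and 7 over all windows. These letters describe the windows only, since the arrays measured no binding.

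The arrays had between 42.8% and 53.4% of R/R signals well above background and between 48.2% and 50.3% of WT signals, and no spot was saturated. Of 10 B lineage genes listed as a check, all 10 were well above background in both genotypes, while Alb, Afp, Apoa1 and Ttr, 4 of 5 hepatocyte genes, were not well above background on any array of these fetal liver-derived lines. The remaining hepatocyte gene, Trf, was so in 3 R/R and 4 WT channels. Among genes listed for other cell types, Elane, Csf1r, Itgam, Cd3e, Lck, Pecam1, Kdr, Col1a2 and Hbb-bh1 were so in all 4 channels of each genotype. No cell type is assigned from these genes. The point mutations of Cdk4 and Cdk6 cannot be read from these probes. The number of arrays limits the precision, and in bulk RNA fewer cells expressing a gene and less RNA per cell cannot be told apart.

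By the detection rule used here, few HOX genes were detected in these lines. Of the 11 detected in WT, 5 were central members of the Hoxb cluster. Looser rules, given further below, counted more. A probe was counted as detected when the scanner software marked it as well above background. Among R/R channels, 5 of 38 HOX genes were detected on at least 3 of 4 arrays, where 55.0% of all genes with a symbol were. In the WT channel 11 of 38 were, where the share over all genes was 57.9%. The 5 genes detected in R/R were Hoxa7, Hoxb9, Hoxc10, Hoxc13 and Hoxd11, and all 5 were also detected in WT. The other 6 genes, detected in WT only by this rule, were Hoxb4, Hoxb5, Hoxb6, Hoxb7, Hoxb8 and Hoxc5.

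**Figure D1:**
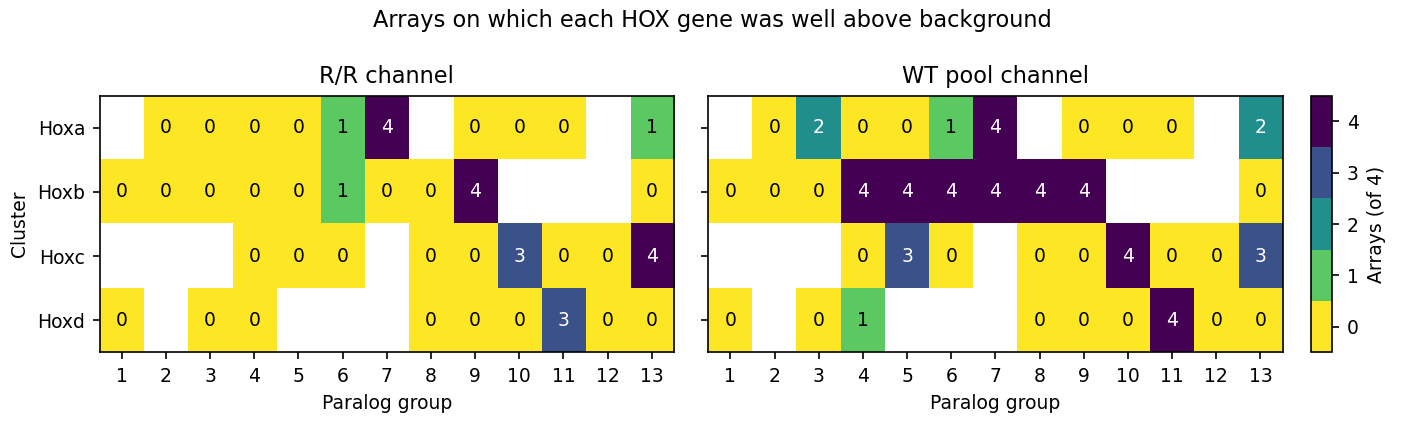
Each square gives the number of arrays, of 4, on which the brightest probe of a HOX gene exceeded background clearly, in the R/R channel (left) and in the WT pool channel (right); rows are the 4 clusters, columns are paralog groups 1 to 13, and blank squares hold no gene analysed here. Hoxb4 to Hoxb8 show 4 of 4 arrays in the WT channel and 0 or 1 of 4 in the R/R channel, while Hoxb9 and Hoxa7 show 4 of 4 in both.

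The pattern of being detected in all 4 WT channels and in at most 1 of 4 R/R channels was held by 5 HOX genes, Hoxb4, Hoxb5, Hoxb6, Hoxb7 and Hoxb8, and by 0.935% of all 20972 genes with a symbol. The converse pattern, all 4 R/R channels and at most 1 WT channel, was held by 0 HOX genes and by 0.0715% of all genes. By cluster, R/R detection on at least 3 arrays was found for 1 of 10 Hoxa, 1 of 10 Hoxb, 2 of 9 Hoxc and 1 of 9 Hoxd genes, and WT detection for 1 Hoxa, 6 Hoxb, 3 Hoxc and 1 Hoxd gene. By position, none of the 7 anterior genes (paralog groups 1 to 3) was detected in either genotype by this rule. Of the 15 central genes (groups 4 to 8) 1 was detected in R/R and 7 in WT, and of the 16 posterior genes (groups 9 to 13) 4 were detected in each. Of the 196 genes with the pattern of Hoxb4 to Hoxb8, 5 were HOX genes.

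Genes were tested where a probe was detected in either genotype on at least 3 of 4 arrays, which left 11 HOX genes among 20051 genes or unnamed transcripts. A limma fit with a genotype and a dye term called a gene when its Benjamini-Hochberg adjusted p was under 0.05. Of the 11 HOX genes, 3 were lower in R/R, Hoxb4, Hoxb6 and Hoxb8, and 8 did not pass, while 0.374% of all tested genes were lower and 0.524% were called in either direction. Over all tested genes the calls were 75 lower and 30 higher, but 44 lower and 6 higher with the scanner software's log ratios and 28 lower and 2 higher with median centring. No HOX gene was called higher in R/R, where 0.150% of all tested genes were called higher. None was higher at an unadjusted p under 0.05 either, where 7.26% of all tested genes were. At an unadjusted p under 0.05, 5 HOX genes were lower (Hoxb4 to Hoxb8), beside 8.09% of all tested genes. Hoxb4, Hoxb5, Hoxb6, Hoxb7, Hoxb8 and Hoxc5 entered the test through the WT channel alone. That route favours genes with a lower ratio in R/R, though it does not require one. The median of the 11 fitted ratios, -0.22 beside -0.02 over all tested genes, is therefore a description and no support. With no filter on dim probes, all 38 HOX genes were tested, and the calls were again Hoxb4, Hoxb6 and Hoxb8. Over all genes that fit called 56 lower and 20 higher.

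Hoxb6, whose forced expression is known to expand blood stem cells and to give myeloid leukaemia in mice, was called lower in R/R. Its normalised log2 signal was 6.11, 6.07 and 6.30 in R/R clones 1, 2 and 3 and 6.22 in the R/R pool, against 7.34, 7.38, 7.69 and 7.61 in the WT pool on the same arrays. The R/R and WT values did not overlap, and the signal of R/R was well above background in clone 2 only. The ratios were -1.23, -1.31, -1.38 and -1.38, a clone mean of -1.31 ± 0.08 (SD, n = 3), and the fit gave -1.35 ± 0.09 (SE, 3 clones and 1 pool; limma adjusted p = 0.01244). No fold is given, because R/R was not well above background on 3 of 4 arrays.

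Hoxb8, a gene that blocks the maturation of myeloid progenitors when forced and that is activated in a mouse myelomonocytic leukaemia line, was called as well. The order of the fitted ratios of Hoxb6 and Hoxb8 turned with the scanner software's log ratios, which gave -4.06 and -4.36. The log2 signal was 6.06, 5.68 and 5.92 in the 3 R/R clones and 6.07 in the R/R pool, against 7.17, 7.15, 7.24 and 7.17 in the WT pool. All R/R values lay below all WT values, and none of the R/R channels was well above background. The fitted ratio was -1.20 ± 0.10 (limma adjusted p = 0.02688) and the clone mean -1.30 ± 0.18 (SD, n = 3). Because the R/R side has only a bound, the signal was at least 2.00-fold lower in R/R, a bound that uses, per array, the dimmest signal that counted as detected or the measured one if that was larger.

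Hoxb4, known for expanding haematopoietic stem cells when overexpressed, was the remaining called member. Its log2 signal was 6.01, 5.71 and 6.07 in the R/R clones and 6.32 in the R/R pool, against 6.91, 6.73, 6.94 and 6.89 in the WT pool. The groups did not overlap, no R/R channel was well above background, and the pool gave a smaller difference than any clone: the ratios were -0.90, -1.02, -0.86 and, for the pool, -0.57. The fit gave -0.75 ± 0.09 (limma adjusted p = 0.04829), close to the threshold, and the signal was at least 1.57-fold lower in R/R. Without clone 1 the adjusted p was 0.134, and without clone 2 it was 0.0775. The call was also lost with clones 1 and 2, whose ids share their first number, averaged to 1 replicate (adjusted p = 0.0638) and with scaling between arrays (0.0520). In the RefSeq annotation Hoxb4 lies inside the span of the longer Hoxb3 gene, and neither of the 2 Hoxb3 probes was well above background on any array.

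Hoxb7 and Hoxb5, which lie on either side of Hoxb6, had no R/R channel well above background and missed the adjusted threshold. For Hoxb7 the log2 signal was 5.81, 5.76 and 6.01 in the R/R clones and 5.99 in the R/R pool, against 6.86, 6.79, 6.71 and 6.76 in the WT pool. Its fitted ratio was -0.85 ± 0.11 (limma adjusted p = 0.05401), a signal at least 1.51-fold lower in R/R, and without clone 3 the adjusted p was 0.0283. For Hoxb5, a gene whose expression marks long-term repopulating stem cells in mouse bone marrow, the log2 signal was 6.06, 5.99 and 6.13 in the R/R clones and 6.17 in the R/R pool, against 6.58, 6.64, 6.67 and 6.86 in the WT pool. Its ratio was -0.63 ± 0.09 (limma adjusted p = 0.06877), a signal at least 1.48-fold lower in R/R. In both genes every R/R value lay below every WT value. The share of all tested genes with such a separation was not counted, and the WT values are repeats of 1 pool. Nothing is therefore read from the separation, here or for Hoxb4, Hoxb6 and Hoxb8. Whether Hoxb5 and Hoxb7 differ from Hoxb4, Hoxb6 and Hoxb8 was not tested.

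The block ended between Hoxb8 and Hoxb9. Hoxb9, the next gene along the chromosome, was detected in all 8 channels: its log2 signal was 6.55, 6.50 and 6.48 in the R/R clones and 6.57 in the R/R pool, against 6.51, 6.55, 6.69 and 6.56 in the WT pool. These values overlapped, and the fitted ratio was -0.03 ± 0.10 (limma adjusted p = 0.8988). Toward the anterior end, Hoxb1, Hoxb2 and Hoxb3, and at the far posterior end Hoxb13, were not well above background in either genotype, so that no difference could be measured for them. The ratios of these 4 genes ran from -0.22 to 0.24. The difference between the ratios of Hoxb8 and Hoxb9 was not tested.

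**Figure D2:**
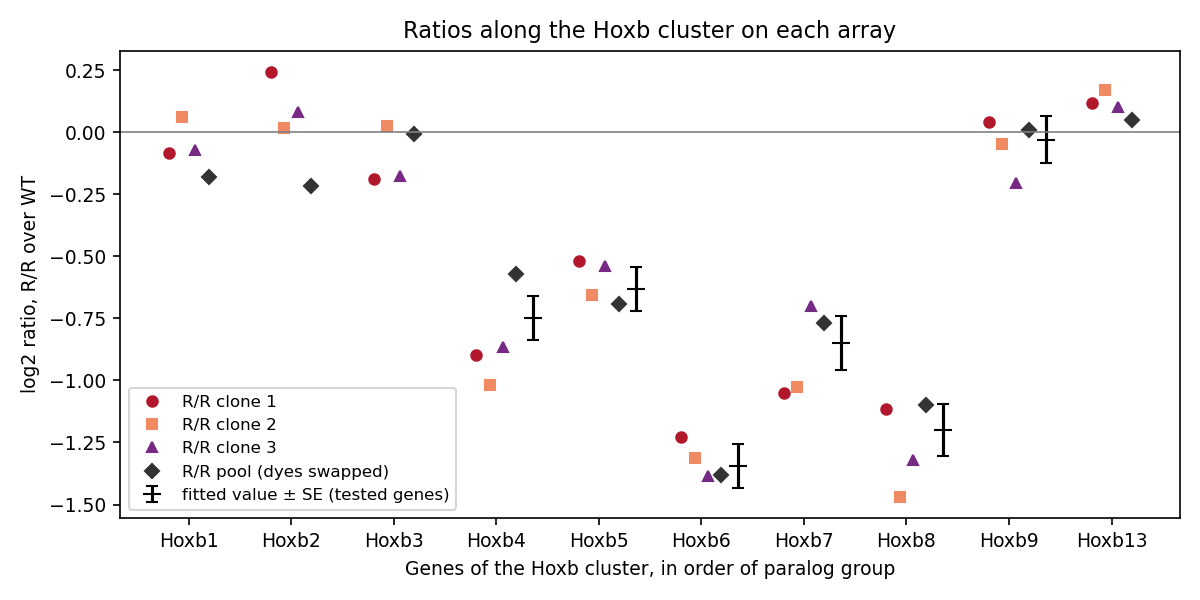
Log2 ratio of R/R over WT (vertical axis) for each gene of the Hoxb cluster in order of paralog group (horizontal axis), with 1 point per array (R/R clones 1, 2 and 3 and the R/R pool) and, for the 6 tested genes, the fitted value with its SE. The 4 arrays of Hoxb4 to Hoxb8 lie between -1.47 and -0.52, while those of Hoxb9 lie between -0.20 and 0.04.

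The clones were close to each other in most of this block. The SD between the 3 clones was 0.08 for Hoxb4, 0.07 for Hoxb5 and 0.08 for Hoxb6, and it was 0.20 for Hoxb7 and 0.18 for Hoxb8, where the median over all tested genes was 0.17. Clone 3, whose id has another first number, had the smallest difference of the clones for Hoxb4 and Hoxb7 (-0.86 and -0.70) and the largest for Hoxb6 (-1.38). Since ratios of genes at the floor of the R/R channel measure mainly the WT signal, a spread between clones cannot be read as a spread in R/R expression.

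The size of these ratios depends on how the background was treated, because 50 intensity units were added to every signal before the logarithm. In the scanner software's processed intensities, which carry no such offset, Hoxb8 read 5.36, 3.19 and 5.65 in the R/R clones and 5.91 in the R/R pool, against 106.2, 119, 114.6 and 101.1 in the WT pool. Hoxb6 read 14.4, 20.7, 19.6 and 7.01 in R/R, against 150.3, 176, 208.1 and 199.8 in WT. Hoxb4 read 4.83, 3.54, 6.06 and 10.8 in R/R, against 68.6, 63.6, 76.0 and 74.7 in WT. In each case the R/R intensities lay far below the WT ones and, apart from Hoxb6 in clone 2, were not well above background, so that their ratio to WT has no reliable size.
Hoxb7 read 5.27, 3.75, 6.52 and 6.88 in R/R, against 85.3, 85.8, 66.5 and 63.9 in WT. Hoxb5 read 4.16, 6.19, 5.19 and 7.24 in R/R, against 39.4, 47.7, 48.2 and 57.7 in WT. Hoxb9 read 38.3, 44.6, 37.1 and 39.6 in R/R, against 45.1, 42.8, 44.1 and 41.2 in WT, so that the ranges of the genotypes overlapped. With the software's own log ratios, the fitted values of Hoxb4 to Hoxb8 ran from -4.36 to -3.06, and all 5 genes passed the threshold.

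**Figure D3:**
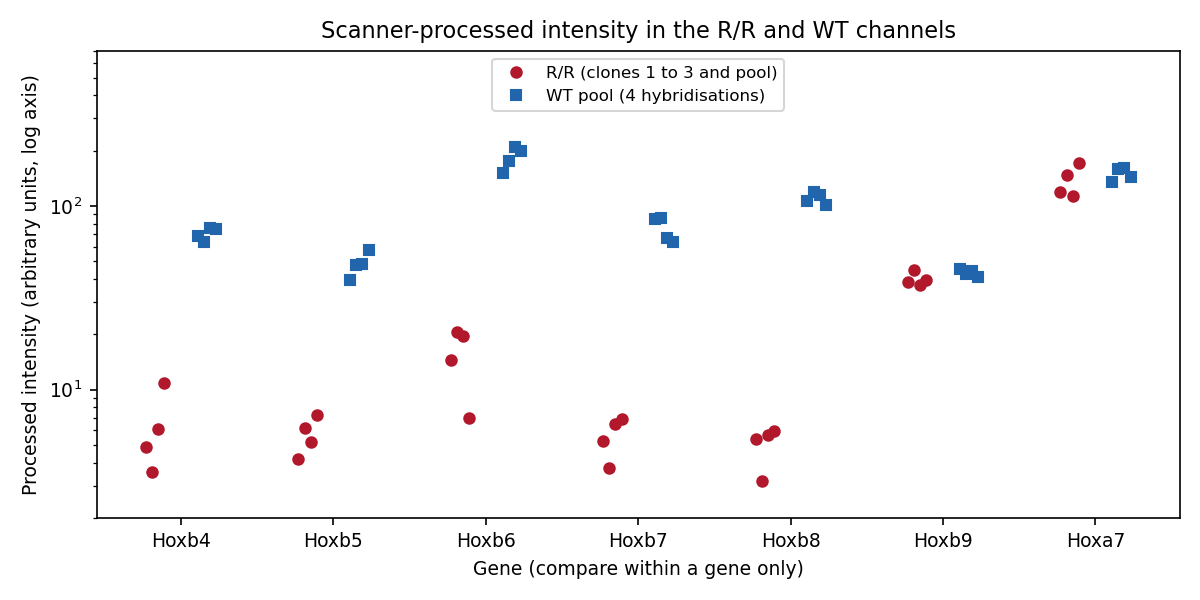
Scanner-processed intensity (vertical axis, arbitrary units, log axis) of 7 HOX genes, with the R/R clones and pool to the left (circles) and the 4 hybridisations of the WT pool to the right (squares) within each gene. R/R points of Hoxb4 to Hoxb8 lie between 3.19 and 20.7, against 39.4 to 208.1 for WT, while the R/R and WT points of Hoxb9 and of Hoxa7 overlap.

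Hoxa7 was the Hoxa gene that could be tested. It is known as a gene activated together with Meis1 in mouse myeloid leukaemias. Its log2 signal was 7.35, 7.48 and 7.25 in the R/R clones and 7.58 in the R/R pool, against 7.46, 7.56, 7.53 and 7.41 in the WT pool. The ratios were -0.10, -0.08 and -0.29 in the clones and 0.18 in the dye-swapped pool, and the fit gave 0.01 ± 0.09 (limma adjusted p = 0.9655). The clones and the pool thus gave opposite signs, and the fitted sign changed between processing settings.

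The remaining 4 tested genes, Hoxc5, Hoxc10, Hoxc13 and Hoxd11, did not pass. Hoxc5, a cervical and thoracic patterning gene, was detected in none of the R/R channels and in 3 WT channels. Its ratio was -0.22 ± 0.09 (limma adjusted p = 0.3295), and it was below 0 on all 4 arrays. On the clone 2 array the ratio was -0.01, and WT was not well above background there. No minimum difference is given for Hoxc5, because WT was not detected on that array. Hoxb4 to Hoxb8 and Hoxc5, 6 of the 11 tested HOX genes, were lower on all 4 arrays, as were 16.2% of all tested genes. These are the 6 genes that entered the test through the WT channel, so nothing is read from that count. Hoxc10, which acts in lumbar patterning, had ratios of 0.10, 0.03 and -0.26 in the clones and 0.17 in the pool (fit 0.06 ± 0.11). Hoxc13, required for hair formation, had ratios of 0.10, 0.14, 0.06 and 0.04 (fit 0.07 ± 0.09). Hoxd11, which with its Hoxa paralog shapes the forearm and kidney, had ratios of -0.25, 0.10, -0.09 and -0.05 (fit -0.06 ± 0.11), and its second probe was not well above background on any array. In these 3 genes the adjusted p lay between 0.733 and 0.815 in the limma fit, and none of the fitted ratios exceeded its SE.

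The other 27 HOX genes were not tested. By their brightest probe, 23 of them were not well above background in either channel of any array, and 4 were so on some arrays. Hoxa3, a patterning gene of the pharyngeal arches and thymus, was detected in the WT channel of the clone 1 and clone 3 arrays, with ratios of -0.21, -0.09, -0.08 and 0.19. Hoxa6 was detected in R/R clone 2 and in the WT channel of the pool array, with ratios of 0.00, 0.09, -0.20 and -0.03. Hoxa13, a gene of the distal limb, was detected in R/R clone 2 and in the WT channel of the clone 1 and pool arrays, with ratios of -0.03, 0.17, -0.03 and -0.14. These 3 genes switched sign between arrays. Hoxd4 was detected in the WT channel of the clone 2 array alone, with a ratio there of -0.15. Hoxa9, the best known HOX gene of MLL-rearranged leukaemia, had a brighter probe that was nowhere above background and a dimmer one that was so in the WT channel of the clone 3 array, at a ratio of -0.07. Over the 27 genes and 4 arrays the 108 ratios ran from -0.27 to 0.31 with a median of -0.01, values that at this signal say nothing about a difference.

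Genes that act with HOX proteins or on HOX clusters were described as lists of known roles. Of 9 TALE cofactor genes, 7 were tested, and none passed in either direction in the limma fit (1 at an unadjusted p under 0.05). Over all tested genes 15.4% had an unadjusted p under 0.05 in either direction, a share against which this count and those of the lists that follow are to be read. Meis2 had the highest ratio of them, 0.72 ± 0.19 (limma adjusted p = 0.1797): 0.79 in clone 1, 0.86 in clone 2, 0.00 in clone 3 and 0.90 in the pool. Clone 3 stood apart, and without it the value was 0.86 with an adjusted p of 0.03253. Pbx2 (-0.21), Meis3 (-0.17) and Pknox1 (0.15) were the next by p. Meis1, the usual partner of Hoxa9 in leukaemia, and Pknox2 were not well above background on any array.

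Among genes that maintain HOX transcription, 14 of 18 were tested and none passed in the limma fit (2 at an unadjusted p under 0.05). Kdm6a, which removes the repressive methyl marks of histone H3 lysine 27, had a ratio of -0.28, and Mllt1, which encodes the chromatin reader ENL, one of 0.29. Men1, which encodes the MLL partner menin, stood at 0.19, and Aff4, an elongation factor subunit, at -0.19. Cdx1, Cdx2 and Cdx4, homeobox genes that activate HOX clusters, were not well above background on any array, and Kmt2a had no matched probe. Of 16 Polycomb genes, 15 were tested and none passed (1 at an unadjusted p under 0.05). Cbx2 (-0.28), Cbx8 (-0.22), Rnf2 (-0.20) and Phc3 (-0.17), all members of Polycomb repressive complex 1, had the smallest p. The median ratio was 0.05 for the TALE, -0.02 for the activator and -0.11 for the Polycomb genes, beside -0.02 over all tested genes.

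Protein-coding genes next to the clusters did not pass either. Of 18 listed flanking genes, 12 were tested, and none passed in the limma fit, while 4 had an unadjusted p under 0.05, beside the 15.4% of all tested genes. Mtx2, which encodes a mitochondrial import protein beside the Hoxd cluster, was higher on all 4 arrays, 0.30, 0.35, 0.25 and 0.71, with a fitted 0.51 ± 0.09 (limma adjusted p = 0.09661). Atf2 and Smug1, near the Hoxd and Hoxc clusters, had ratios of -0.28 and -0.36. Cbx1, near the Hoxb cluster and with a probe detected in both genotypes, had 0.24, opposite in sign to Hoxb4 to Hoxb8, and did not pass. Its ratios were 0.10, 0.04 and 0.06 in the clones and 0.41 in the pool, so the fitted value came mainly from the pool array. Of 10 noncoding RNAs of the clusters 2 had a matched probe: Hoxa11os was detected on 2 arrays in each genotype, with ratios from 0.04 to 0.14, and Hoxd3os1 on none. Antisense RNAs of the Hoxb block were not analysed here, and since the probe sequences were not used, signal from transcripts that overlap a Hoxb gene cannot be told apart from its own.

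Among 10 genes reported as HOXA9 targets in blood cells, all 10 were tested, 1 was higher in R/R, none was lower (1 at an unadjusted p under 0.05), and the median was 0.03. Igf1, which encodes an insulin-like growth factor, was the called gene: 0.71, 0.72 and 0.63 in the clones and 0.81 in the pool, with a fit of 0.75 ± 0.09 (limma adjusted p = 0.04755). It was well above background in all 4 R/R and in 2 WT channels. The probe that stood for it thus entered the test through the R/R channel alone, a route that favours genes with a higher ratio in R/R. With detection in both channels required on 4 arrays, Igf1 was not tested. Its adjusted p was 0.134 without clone 1 and 0.0764 without clone 2, 0.0633 with clones 1 and 2 averaged, and 0.0729 when its probes were averaged. Lmo2, a haematopoietic transcription cofactor, was lower on each array, with ratios of -0.99, -1.57 and -0.33 in the clones and -0.79 in the pool, and with a fit of -0.88 ± 0.23 (limma adjusted p = 0.185). Flt3 (-0.16) and Id2 (0.08) were the next by p.

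**Figure D4:**
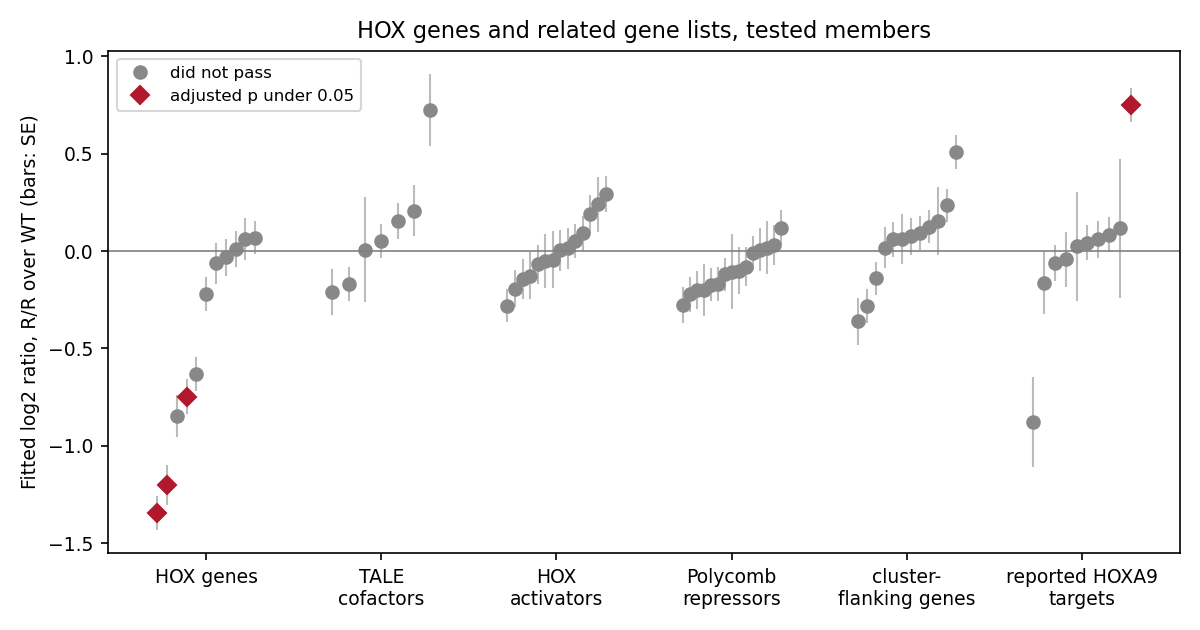
Fitted log2 ratio of R/R over WT with its SE for every tested gene (points) of the HOX list and of 5 related lists, sorted within each list, with diamonds for genes whose adjusted p was under 0.05. The 5 lowest HOX points, from -1.35 to -0.63, are Hoxb4 to Hoxb8, and 1 gene of the other lists, Igf1 at 0.75, passed.

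An erythroid gene was also called lower in R/R. Hbb-bh1, an embryonic beta-type globin, was lower in R/R on all 4 arrays, at -1.54, -1.76, -1.96 and -1.87, with a fit of -1.81 ± 0.11 (limma adjusted p = 0.0109). The summed linear signal of 5 erythroid genes ran from 416 to 462.8 over the R/R channels, against 775.8 to 883.6 over the WT channels. The difference between these sums rests on Hbb-bh1. The defining genes Hba-a1, Klf1, Epor and Alas2, 4 of 5, were not well above background on any array. Their signal near the floor adds to the sum of every channel, so the sums show a smaller difference than the ratio of Hbb-bh1. In the myeloid list 4 of 6 genes were tested and none passed, with sums of 16910 to 35890 in R/R against 30110 to 32840 in WT. That sum is nearly all Itgam, whose brightest probe had a log2 signal of 13.99 to 15.11 in R/R and 14.85 to 14.98 in WT. Its dimmer probes lay at 6.27 to 6.61, and Mpo and Cebpa were not well above background on any array. In the B lineage list none of 10 passed, with sums of 103900 to 155600 in R/R against 105400 to 121300 in WT. None of the tested T lineage (2 of 4 genes), hepatocyte (1 of 5), stromal (3 of 6) or endothelial genes (2 of 4) passed. At an unadjusted p under 0.05 in the limma fit, 2 of the B lineage genes and none of these others would have been called. The part of such cells in the lower Hoxb signal was not tested.

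The ratios of the Hoxb block kept their sign under the 14 alternative settings that tested them, but the number of calls did not stay the same. The filter on both channels tested none of these 5 genes. The fitted values over the settings ran from -3.33 to -0.73 for Hoxb4, from -3.06 to -0.57 for Hoxb5, from -4.06 to -1.31 for Hoxb6, from -3.59 to -0.82 for Hoxb7 and from -4.36 to -1.16 for Hoxb8. Hoxb6 passed in 13 of 14 settings and Hoxb8 in 12, while Hoxb4 passed in 8, Hoxb7 in 6 and Hoxb5 in 3.

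**Figure D5:**
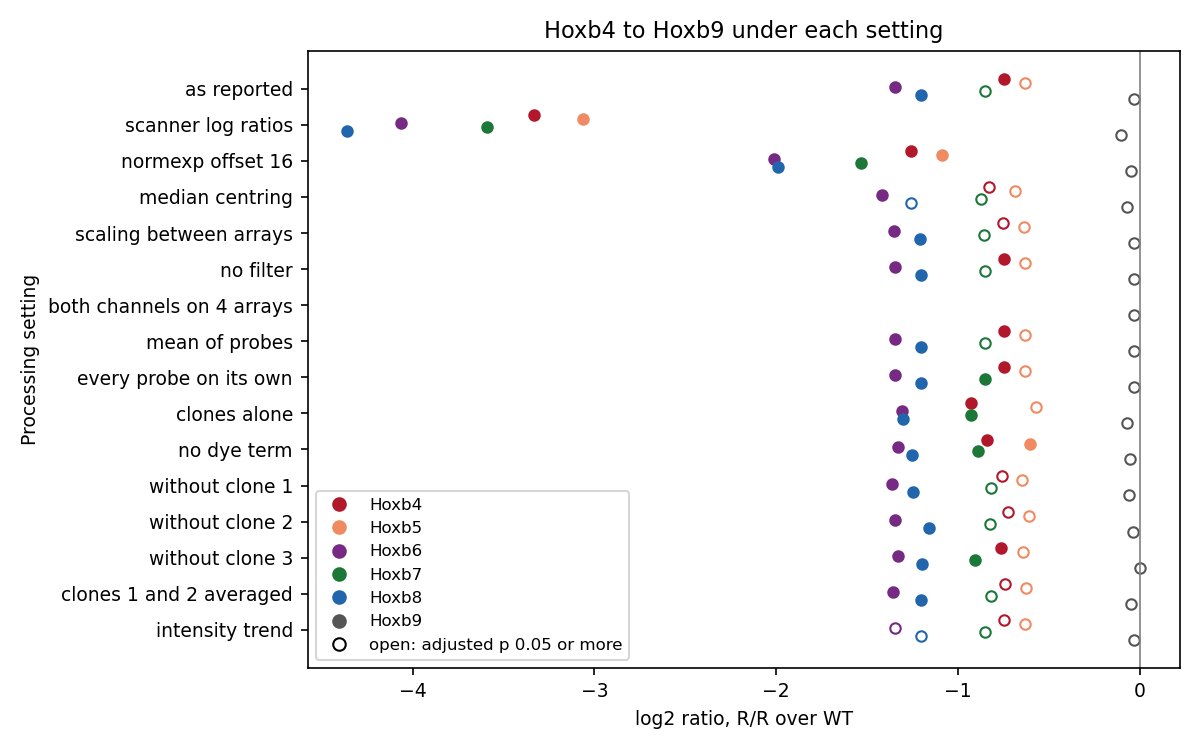
Fitted log2 ratio of R/R over WT (horizontal axis) of Hoxb4 to Hoxb9 under each processing setting (rows), with filled points for an adjusted p under 0.05 and open points otherwise. Points of Hoxb4 to Hoxb8 lie left of 0 in every row that tests them, and the scanner software's log ratios give the largest differences, while Hoxb9 stays between -0.10 and 0.00.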

How the data were processed

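Gene expression was measured on 4 two-colour Agilent arrays of a single slide, and no batch could be separated. The intensity columns hold, per the file headers, the median pixel intensity of each spot and of its surroundings (Feature Extraction 11.5.1.1), with processed intensities corrected for background and dye within the array, and the log10 values are log10 ratios of processed Cy5 over Cy3. A deposited table of log2 values was not used, because its row numbers match no probe column. Gene names come from the RefSeq accession of a probe and RefSeq tables for GRCm38.p6, used for names, gene order and start windows. Of 55681 probes, 27656 received 1 symbol and 28025 none.

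With limma 3.58.1 in R 4.3.3, median intensities were corrected by normexp (offset 50) and normalised by loess within the array, control spots having weight 0. On each array 210 to 265 non-uniform or outlier spots were dropped, and the remaining spots of each probe were averaged. Probes well above background in at least 0.5 of their spots, in either genotype on 3 or more of 4 arrays, entered the test (26450), and taking the brightest for each gene left 20051 genes or unnamed transcripts. Signals per channel were scaled between arrays by Aquantile. Each gene was fitted with a genotype and a dye term, so the pool counts as much as the clones' mean, with 2 residual degrees of freedom. Two-sided p-values were adjusted by Benjamini-Hochberg over all 20051. Bounds make no allowance for error. The fit was tested on simulated data.

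The HOX genes, the related lists and the tests were chosen with earlier results of these data known. Every HOX gene is accounted for; from each related list the text names the genes past the threshold and the 4 with the smallest p. An erythroid marker that had been planned for its list is not reported here. Alternatives were offset 16, the log ratios of the scanner software, centring on the median, scaling between arrays, no filter, a filter on both channels, averaged or single probes, the fit without the pool, without the dye term, without each clone in turn or with clones 1 and 2 averaged, an intensity trend, an adjusted p under 0.1, and other detection rules.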

Additional observations from a re-analysis of the deposited data

How the results depend on the processing

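Hoxb4, Hoxb6 and Hoxb8 (3 HOX genes) passed under the settings reported. The number was 5 with the scanner log ratios, with offset 16, with no dye term and at an adjusted p under 0.1, each time Hoxb4 to Hoxb8. It was 1 (Hoxb6) with median centring, and 0 with an intensity trend in the limma fit, under which no gene on the array passed and 6 HOX genes had an unadjusted p under 0.05. The share of all genes at that unadjusted p under the trend is not given, so nothing is read from these 6. The number called was 0 as well for probes detected in both channels on 4 arrays. That rule left 2 HOX genes to test, neither of them with an unadjusted p under 0.05. With 1 clone left out the number ran from 2 to 4, losing Hoxb4 without clone 1 or clone 2 and gaining Hoxb7 without clone 3. It was 2 with clones 1 and 2 averaged and 2 with scaling between arrays, both times without Hoxb4. HOX genes detected in R/R numbered 5 as reported, 3 when all 4 arrays were required, 8 when 1 sufficed, 13 when a significantly positive spot sufficed, and 3 to 5 with 1 clone left out, 3 without clone 1 and 3 without clone 2. In WT the significantly positive spot gave 23 in place of 11. Shares over all genes under these other detection rules are not given, so these counts have no background beside them. The causes were not tested. Offset 50 reduces the ratios of weak signals, as the larger values with the scanner log ratios and with offset 16 show. Over all genes the calls were 75 lower and 30 higher, but 44 and 6 with the scanner log ratios, 28 and 2 with median centring, 203 and 107 at an adjusted p under 0.1, 650 and 490 with no dye term, 49 and 12 without clone 1, 62 and 20 without clone 2, and 176 and 88 without clone 3. They were 84 and 28 with offset 16, 79 and 34 with scaling between arrays, and 97 and 35 with clones 1 and 2 averaged. With both channels required on 4 arrays they were 48 and 25. No result changed sign while called. The deposited log2 table was not run. No paired analysis was possible because each clone was hybridised once against the same WT pool and the pool array has no number.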

Other observations

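Along the chromosomes, Hoxb8, Hoxb7, Hoxb6, Hoxb5 and Hoxb4 formed the longest run of neighbouring tested genes with a low ratio. This scan and its limit were chosen after the values were seen. Of 12304 tested genes that could be placed in the gene order of GRCm38.p6, 302 had a fitted ratio of -0.6 or less, and 1 run held 5 or more such genes in succession, the Hoxb run on chromosome 11. With a limit of -0.5, which 449 genes met, the number of such runs was again 1. All 5 genes of the Hoxb run entered the test through the WT channel alone. That filter favours low ratios, so the length of the run is a description and no support. At -0.6 the next longest run held 4 genes, 2010016I18Rik, Dennd2d, Cept1 and Dram2 on chromosome 3, which were named after their values were seen. On the other side, the longest run of genes at 0.6 or more held 4 genes. Neighbouring genes can share overlapping transcripts, and no test was made.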
